A study of Mus musculus with 29 samples.

Results

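Interferon-stimulated genes were followed through 29 mouse livers as a list of 39 genes, taken as every non-control array row whose gene name was on the list. All 39 were on the array, with 50 of its 39429 probes, and 37 were measured well enough to be tested among 19475 genes. Trim25 was not tested because its probe gave a value on 1 array only, and Oas1g because its probes were near background on almost every array. Each value is a log2 ratio of liver RNA (Cy5) to a pool made from the study's samples (Cy3), 1 array per mouse, and a change is a difference of mean ratios between groups. The study asked how marine phospholipids and rosiglitazone, alone and together, alter the liver of mice on a fat-rich diet.

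All mice were male wild-type C57BL/6N, 3 months old at the start and on chow before, and for 7 weeks every group, the controls included, ate a diet rich in fat from corn oil. The cHF group (7 livers) had that diet alone. In cHF+PC (8 livers) about 7% of the dietary lipid was exchanged for a concentrate of omega-3 phospholipids rich in phosphatidylcholine, which carries EPA and DHA. The cHF+R group (6 livers) received a low dose of rosiglitazone, a drug that activates the nuclear receptor PPAR-gamma, and cHF+PC+R (8 livers) received both. No chow-fed group is among these arrays, and the labels name no infection and no interferon treatment. The labels call the samples individual, and p-values measure the spread between them.

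Interferons are secreted proteins that warn cells of infection. Type I interferon acts through a receptor whose signal leads a complex with STAT2 and IRF9 to a DNA element called the ISRE, while interferon-gamma acts mainly through an element called GAS. Many interferon-stimulated genes are kept at a low tonic level in healthy liver, in hepatocytes as well as in resident macrophages, and they rise together when the pathway is engaged.

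The promoters of the list are shown first because these elements are what its members are known for. RefSeq windows of 300 bases around the start of transcription (assembly GRCm38.p6) were matched for 31 of the 39 members and 38 start sites. Both strands were searched for the ISRE core (GAAA, any 2 bases, GAAA) and for the GAS pattern TTCNNNGAA, which is its own reverse complement. The ISRE core was found for 17 members and in 44.7% of their windows, against 3.44% of all 32851 windows, and GAS for 9 members and in 23.7% of their windows, against 8.3%. Since the genes are known for these elements, the shares describe the list and test nothing. The stretches below lie before the start site, with matched bases in capitals and overlapping matches run together. They are Isg15, Ifit1, Ifit3, Rsad2 and Oas1a for type I effectors, Igtp and Gbp3 for the GTPases, Ifitm2 for the member that rose, Irf1 for a GAS match, and Oasl1 and Ifitm1, which fell and whose windows held neither pattern.
Isg15, chr4:156200863-156200908, minus strand: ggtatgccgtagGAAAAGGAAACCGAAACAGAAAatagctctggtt
Ifit1, chr19:34640773-34640825, plus strand: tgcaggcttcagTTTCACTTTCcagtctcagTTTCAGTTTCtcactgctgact
Ifit3, chr19:34583361-34583428, plus strand: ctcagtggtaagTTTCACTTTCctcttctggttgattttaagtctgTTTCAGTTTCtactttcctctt
Rsad2, chr12:26456551-26456584, minus strand: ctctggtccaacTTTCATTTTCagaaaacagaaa
Oas1a, chr5:120907526-120907635, minus strand: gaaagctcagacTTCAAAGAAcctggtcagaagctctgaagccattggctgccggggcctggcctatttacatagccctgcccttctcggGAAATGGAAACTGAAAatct
Igtp, chr11:58199499-58199543, plus strand: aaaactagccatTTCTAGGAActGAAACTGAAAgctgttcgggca
Gbp3, chr3:142559987-142560026, plus strand: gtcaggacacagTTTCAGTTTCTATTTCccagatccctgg
Ifitm2, chr7:140955986-140956019, minus strand: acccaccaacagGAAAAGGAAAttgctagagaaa
Irf1, chr11:53769912-53769944, plus strand: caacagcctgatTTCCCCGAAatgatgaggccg
Oasl1, chr5:114923140-114923239, plus strand: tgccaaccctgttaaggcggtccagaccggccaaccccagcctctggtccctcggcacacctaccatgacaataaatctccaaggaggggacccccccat
Ifitm1, chr7:140967976-140968075, plus strand: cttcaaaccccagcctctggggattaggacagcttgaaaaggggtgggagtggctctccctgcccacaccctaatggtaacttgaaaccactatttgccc

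In Isg15 the ISRE core matched at 3 overlapping positions, the first beginning 78 bases before the start and the last ending 57 before it. In Ifit1 it matched on the opposite strand from 104 and from 85 bases before the start, and in Ifit3 from 156 and from 122. In Igtp a GAS match from 45 bases before the start was followed by an ISRE core from 34, and in Oas1a a GAS match lay 98 bases before the start and overlapping ISRE cores from 20. Ddx58, Ifih1 and Ifitm3 held a core after the start site and none before it. A match is only a run of letters, and the absence of these letters from the windows of Oasl1 and Ifitm1 says nothing about which factors bind there.

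The 29 arrays were alike in depth except for 1. Between 55.0% and 62.5% of spots were well above background in Cy5 on 28 arrays and 80.8% on cHF replicate 4. Correlations between arrays ran from -0.31 to 0.56, with a median of 0.36 within groups and 0.17 between them. The number of arrays limits the precision. Hepatocyte markers were measured on most arrays, with Apoa1 well above background on 29 and Alb on 27. Of 5 adipocyte markers, Adipoq, Plin1 and Lep were well above background on at most 2 arrays, and Cfd and Retn were tested. The mean of Cfd and Retn ran from -2.49 to -1.36 in cHF and from -0.72 to 1.92 in cHF+R. It ran from -3.24 to -1.46 in cHF+PC and from -2.71 to 2.01 in cHF+PC+R. Both genes rose in cHF+R against cHF and with rosiglitazone averaged over phospholipids (limma, adjusted p under 0.05). Cfd fell in cHF+PC+R against cHF+R and with phospholipids averaged over rosiglitazone. Neither gene passed in cHF+PC+R against cHF. The part of these genes in the rosiglitazone and phospholipid results was not tested. In whole-liver RNA, fewer cells of a type and less RNA per cell cannot be told apart.

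Most of the list did not pass the test in any comparison, and 6 members did: Dhx58, Oasl1, Ifitm1, Ifitm3 and Ifi35 fell in at least 1 comparison and Ifitm2 rose in 1. The question of cHF+PC against cHF is what the phospholipids did on their own. There 3 of 37 members fell and 0 rose, while 3.92% of all genes passed, 1.82% up and 2.11% down (limma, adjusted p under 0.05 by Benjamini-Hochberg over all genes). The median change of the 37 members was -0.086 against 0.00084 over all genes, and 30 of the 37 changes were below 0. Members moved together between livers, so these signs are not 37 separate observations. With 1 liver left out at a time, this median ran from -0.12 to -0.054. The 10 tested Kupffer cell and macrophage markers had a median of -0.09 in the same comparison, with 9 of 10 below 0. Of these markers 0 passed the threshold (limma, 0 with an unadjusted p under 0.05). Their part in the shift of the list was not tested. For both supplements together, in cHF+PC+R against cHF, 4 members fell and 0 rose, where 9.5% of all genes passed, 4.74% up and 4.76% down. The median of the list was -0.10 against 0.011, with 26 changes below 0. With 1 liver left out at a time, it ran from -0.16 to -0.074. All calls on the list were lost under 2 other scalings of the arrays (median centring, and loess followed by scaling between arrays), under which fewer genes passed overall. The sizes of the larger changes were kept better than the calls. Under these scalings in turn, Oasl1 in cHF+PC against cHF read -0.69 and -0.64, Dhx58 in cHF+PC+R against cHF -0.50 and -0.49, and the averaged phospholipid change of Ifitm1 -0.30 and -0.29. The averaged rosiglitazone change of Ifi35 read -0.027 and -0.17.

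Rosiglitazone alone, cHF+R against cHF, moved 0 members past the threshold in limma, although 6 of 37 had an unadjusted p under 0.05 and 14.9% of all genes did. That comparison called 3.12% of all genes, 2.02% up and 1.09% down. The median of the list was -0.086 against 0.014, with 27 changes below 0. In the same comparison the macrophage markers had a median of 0.094 with 0 of 10 below 0. The 8 hepatocyte markers had a median of -0.21 with 8 of 8 below 0, and 1 of them, Serpina1a, fell. The part of either cell type in the list's shift was not tested. Leaving out cHF+R replicate 6 took the median of the list to -0.20, and leaving out cHF+R replicate 4 to -0.024. Adding the phospholipids to rosiglitazone, cHF+PC+R against cHF+R, called 1 member, which was lower, where 7.14% of all genes passed, 3.31% up and 3.83% down. Adding rosiglitazone to the phospholipids, cHF+PC+R against cHF+PC, called 0 members in limma, 2 with an unadjusted p under 0.05, and 0.134% of all genes. The interaction of the 2 supplements called 0 members and 0% of all genes, with 1 member under an unadjusted p of 0.05.

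**Figure D1:**
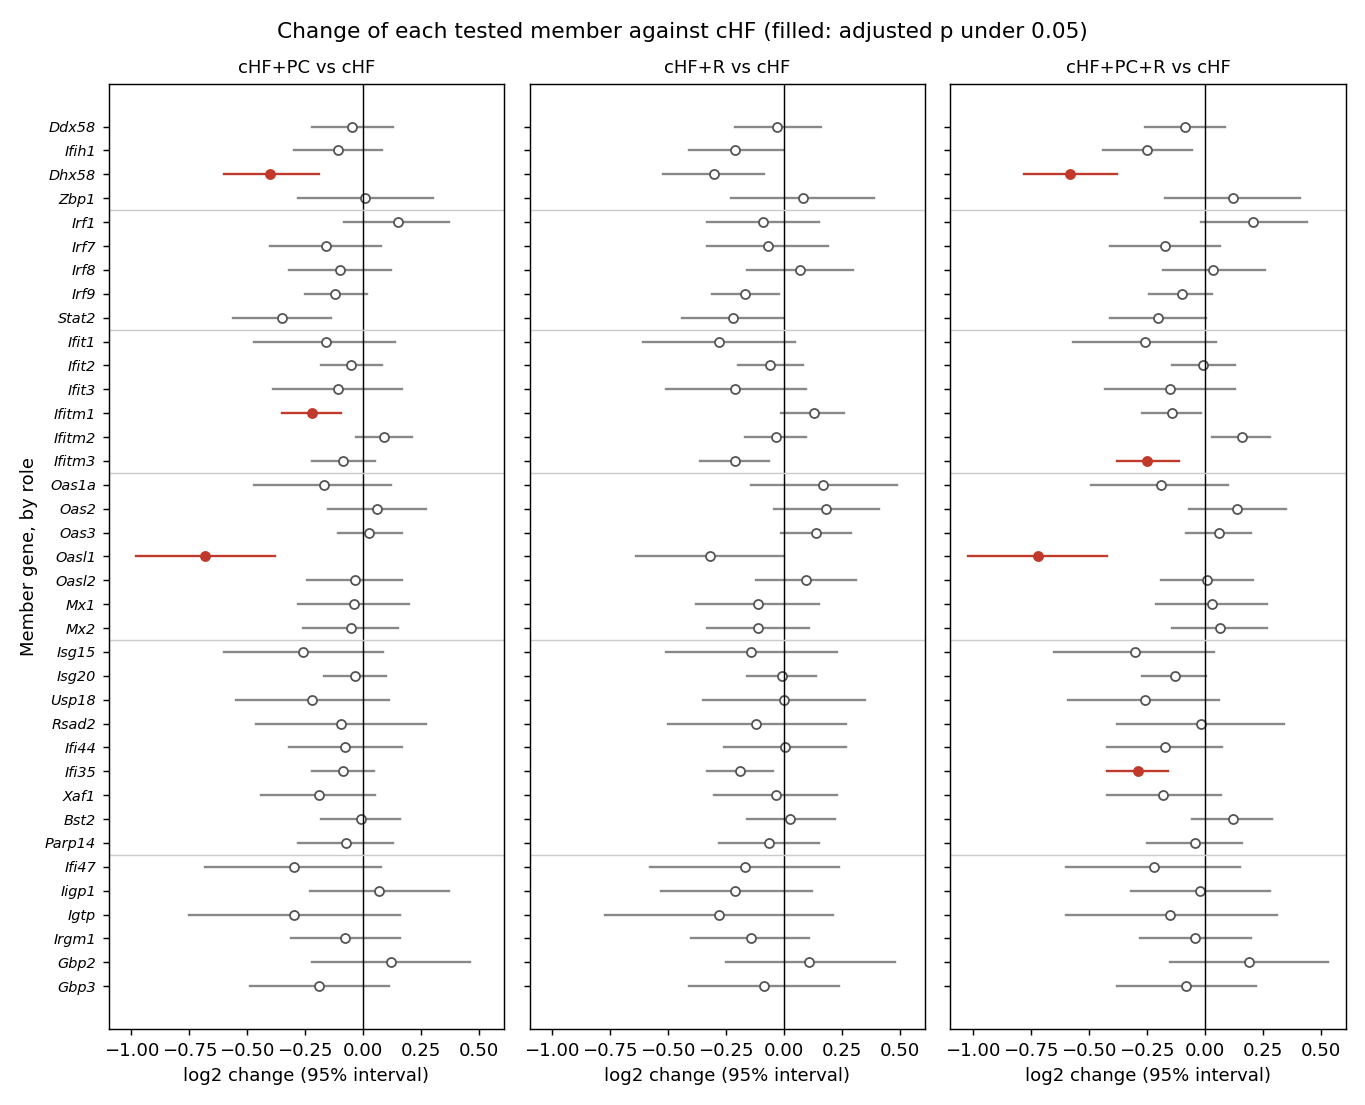
Log2 change of each of the 37 tested members against cHF (horizontal axis, with its 95% interval) in 3 panels, 1 for each supplemented group, ordered by role on the vertical axis. Filled red points passed an adjusted p of 0.05 in limma: 3 members in cHF+PC, 0 in cHF+R and 4 in cHF+PC+R, all to the left of 0.

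The sensors recognise viral RNA or DNA in the cell. Dhx58 encodes LGP2, a helicase that tunes the RNA sensors RIG-I (Ddx58) and MDA5 (Ifih1). Its log2 ratio ran from 0.068 through a median of 0.25 to 0.59 in cHF, and from -0.20 through 0.0098 to 0.20 in cHF+R. In cHF+PC the lowest, median and highest values were -0.40, -0.072 and 0.21, and in cHF+PC+R they were -0.59, -0.26 and 0.084. The cHF livers lay highest and the cHF+PC+R livers lowest, and each pair of neighbouring groups overlapped. Dhx58 fell by 0.40 ± 0.0987 (SE) in cHF+PC against cHF (adjusted p = 0.0194, limma). It fell by 0.58 ± 0.0987 in cHF+PC+R against cHF (adjusted p = 0.000324), a comparison with the same cHF livers. In cHF+PC+R against cHF+R, which shares no array with the first, its change was -0.28 and did not pass (adjusted p = 0.0956, limma).

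The change of Dhx58 with rosiglitazone alone was -0.30 ± 0.106 and did not pass (adjusted p = 0.127). Averaged over the other factor, Dhx58 was lower by 0.34 with the phospholipids (adjusted p = 0.00168), where 16.2% of all genes passed (7.61% up and 8.63% down), and its rosiglitazone change was -0.25 (adjusted p = 0.0457), where 4.2% did (2.65% up and 1.55% down). The latter call was lost without any of 18 of the 29 livers, with adjusted p up to 0.0891, and it was also lost under 4 of 13 other settings. The drop in cHF+PC missed the threshold without cHF replicate 3 (adjusted p = 0.055) and with array weights. Taken within slides, Dhx58 was lower in cHF+PC+R than in cHF on 7 of 7 slides, and lower in cHF+PC than in cHF on 6 of 7.

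The other sensors did not pass. Ifih1 changed by -0.25 (adjusted p = 0.093) in cHF+PC+R and by -0.21 (adjusted p = 0.321) in cHF+R, both against cHF, and its groups overlapped. The first of these passed with the replicate number as a block. Ddx58 lay between -0.37 and 0.078 on every array but 1, with -0.63 in cHF replicate 3. That same liver had the highest Dhx58 and Ifih1 of its group, at 0.59 and 0.44. The second probe for Ddx58 and that for Ifih1 also missed the threshold in each comparison. Zbp1, a sensor of unusual nucleic acid forms, varied most among the sensors within groups, with a SD of 0.287, and its highest values were 0.49 in cHF+R replicate 6, 0.45 in cHF+PC+R replicate 6 and 0.41 in cHF replicate 3.

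The transcription factors carry the signal to the genes, and none of the 5 passed in any of the 8 comparisons. Irf7, which amplifies the type I response, had medians of -0.08 in cHF, -0.23 in cHF+R, -0.26 in cHF+PC and -0.26 in cHF+PC+R, with ranges that overlapped widely. Its change was -0.16 in cHF+PC and -0.17 in cHF+PC+R against cHF, with 95% intervals of -0.40 to 0.079 and -0.41 to 0.065. Stat2, a subunit of the ISRE-binding complex, had values on 21 arrays only. Its 4 measured cHF livers read 0.18, 0.16, 0.28 and 0.19, and all lay above the 6 measured cHF+PC livers, between -0.47 and 0.071. That was the only member without overlap between those groups, where 1.42% of all genes had none. Fewer values make a lack of overlap more likely, so that share is not a like measure for 4 and 6 livers. The change of Stat2 in cHF+PC against cHF, -0.35 ± 0.101, missed the threshold (adjusted p = 0.0534, limma). It passed in that comparison once slides, or replicate numbers, were blocked, and with the slide block also in cHF+PC+R against cHF and in the averaged phospholipid effect. Stat2 also had the smallest interaction p of the list, at 0.0152 unadjusted and 0.666 adjusted.

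Irf1, the factor best known for the interferon-gamma response and the one with a GAS match above, stood on the other side of 0. Averaged over rosiglitazone its phospholipid change was 0.22 ± 0.0787, just outside the threshold (adjusted p = 0.0513). Its medians were -0.11 in cHF, -0.27 in cHF+R, 0.073 in cHF+PC and 0.14 in cHF+PC+R. Irf9, the DNA-binding partner of STAT2, changed by -0.17 in cHF+R against cHF (adjusted p = 0.243). Irf8, which directs macrophage and dendritic cell development, reached 0.74 in cHF+R replicate 6, with the next liver of that group at 0.18.

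The IFITM proteins block viruses from fusing with cell membranes, and their 3 members moved in different ways. Ifitm1 ran from 0.06 through a median of 0.20 to 0.27 in cHF and from 0.12 through 0.28 to 0.51 in cHF+R. In cHF+PC its lowest, median and highest values were -0.23, -0.027 and 0.09, and in cHF+PC+R they were -0.10, 0.012 and 0.27. The phospholipid groups lay below the others and overlapped them, with and without rosiglitazone. Ifitm1 fell by 0.22 ± 0.0629 in cHF+PC against cHF (adjusted p = 0.0432) and by 0.27 ± 0.0657 in cHF+PC+R against cHF+R (adjusted p = 0.0111), comparisons that share no array. Averaged over rosiglitazone it was lower by 0.25 ± 0.0455 (adjusted p = 0.000428).

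The first of these calls of Ifitm1 was lost without any 1 of 9 livers, with adjusted p up to 0.107, and under 7 of 14 other settings, among them the slide as a block (adjusted p = 0.0886), the deposited table (adjusted p = 0.0716) and no filter on dim probes (adjusted p = 0.0616). Within slides Ifitm1 was lower in cHF+PC than in cHF on 7 of 7 slides. The second was lost when only its own groups were fitted (adjusted p = 0.0515), and within slides 5 of 6 were lower. The averaged drop passed without each liver in turn, with adjusted p no higher than 0.00119.

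Ifitm2 was the member that rose. Its medians were 0.082 in cHF and 0.003 in cHF+R against 0.15 in cHF+PC and 0.17 in cHF+PC+R, and the ranges overlapped. Averaged over rosiglitazone the rise with phospholipids was 0.14 ± 0.0436 (adjusted p = 0.0248), and it was just lost without cHF+R replicate 3 (adjusted p = 0.0503). Ifitm3, the member with the broadest known antiviral range, had medians of 0.21 in cHF, 0.0076 in cHF+R, 0.17 in cHF+PC and -0.026 in cHF+PC+R. It was lower in both rosiglitazone groups than in their counterparts, with overlap. Ifitm3 fell by 0.25 ± 0.0674 in cHF+PC+R against cHF (adjusted p = 0.0197), and its rosiglitazone effect averaged over phospholipids was -0.19 ± 0.0487 (adjusted p = 0.0231). The averaged effect was lost without cHF+R replicate 3 (adjusted p = 0.0527) and turned to 0.011 under median centring, which placed the median of all genes at 0.12. Ifitm genes are close relatives, so a value may hold signal from more than 1 of them.

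The IFIT proteins bind foreign RNA, and none of Ifit1, Ifit2 and Ifit3 passed. Ifit1 varied most in this group within diets, with a SD of 0.311, from -0.063 to 0.74 in cHF and from -0.60 to 0.73 in cHF+PC+R. Its change was -0.28 in cHF+R and -0.26 in cHF+PC+R against cHF, with 95% intervals of -0.61 to 0.05 and -0.57 to 0.049. Ifit2 differed little from 0 in any group comparison with cHF, at -0.052 in cHF+PC.

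**Figure D2:**
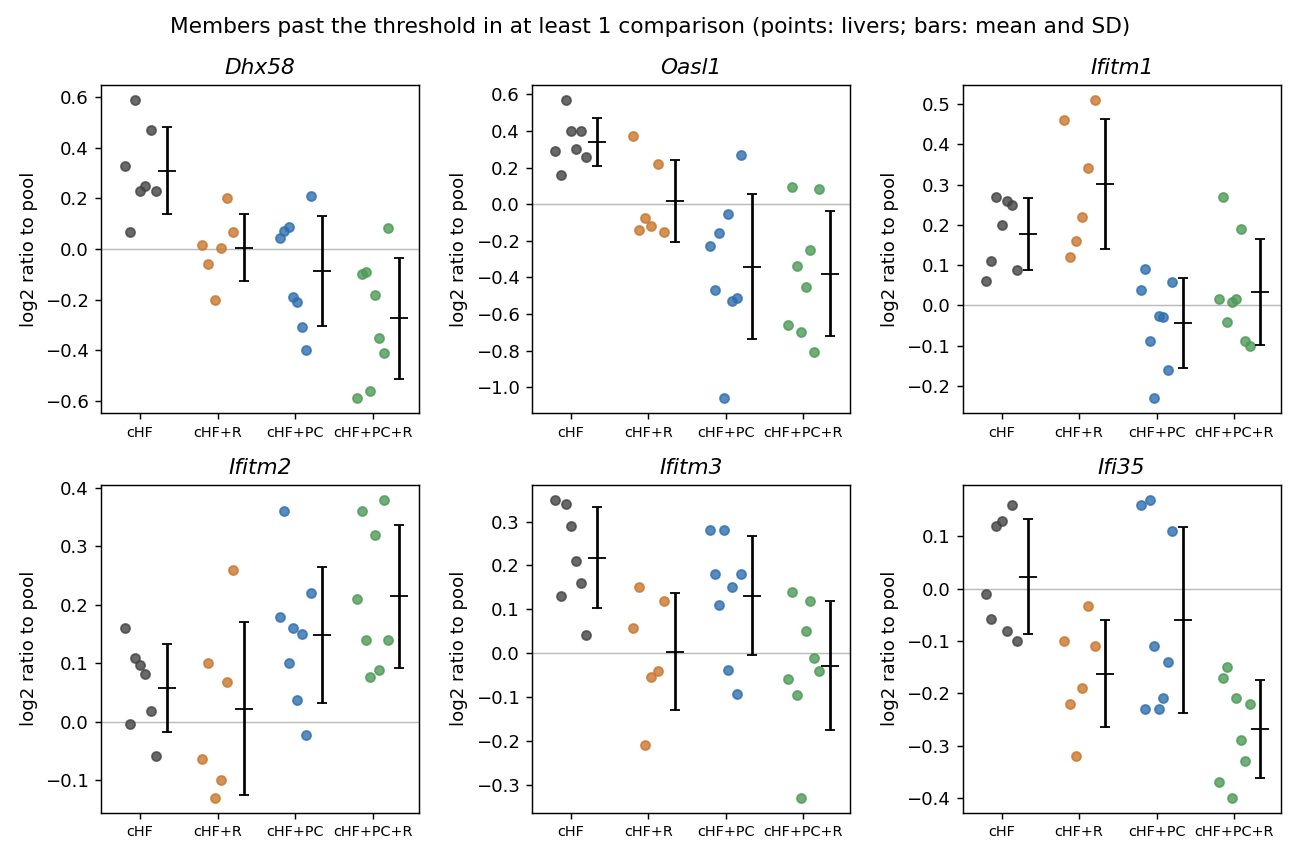
Log2 ratio to the pool (vertical axis) of the 6 members that passed the threshold in at least 1 comparison, by diet group, with 1 point per liver and bars for the mean and SD. Dhx58 and Oasl1 stepped down from cHF to cHF+PC+R with overlapping neighbours, Ifitm1 lay lower and Ifitm2 higher with phospholipids, and Ifitm3 and Ifi35 lay lower with rosiglitazone.

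The OAS enzymes make short adenylate chains that activate RNase L, and the OASL proteins are relatives. Oasl1, which restrains Irf7 translation in mice, showed the largest change on the list. It ran from 0.16 through a median of 0.30 to 0.57 in cHF and from -0.15 through -0.095 to 0.37 in cHF+R. In cHF+PC the lowest, median and highest values were -1.06, -0.35 and 0.27, and in cHF+PC+R they were -0.81, -0.39 and 0.092. Every cHF liver lay above every cHF+PC+R liver, and only 1 cHF+PC liver reached into the cHF range. Oasl1 fell by 0.68 ± 0.147 in cHF+PC against cHF (adjusted p = 0.00691, limma), a 1.61-fold difference. It fell by 0.72 ± 0.147 in cHF+PC+R against cHF (adjusted p = 0.00212), a comparison with the same cHF livers. In cHF+PC+R against cHF+R, which shares no array with the first, its change was -0.40 and did not pass.

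Oasl1 and Ifi35 were the 2 members without overlap between cHF and cHF+PC+R, where 2.46% of all genes had none. Leaving out each liver in turn, the adjusted p of Oasl1 in cHF+PC and in cHF+PC+R against cHF stayed at 0.0194 or lower. Within slides it was lower on 6 of 7 slides in cHF+PC and on 7 of 7 in cHF+PC+R. With rosiglitazone alone it changed by -0.32 (adjusted p = 0.337), with a 95% interval of -0.64 to 0.0012, so that a drop of the size seen with phospholipids was near the edge of what those livers allow.

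The other 6 tested members of this group did not pass. Oas1a, a synthetase that shares a gene cluster and much of its sequence with Oas1g, changed by -0.27 when the phospholipid effect was averaged (adjusted p = 0.0744). Its highest liver was cHF+R replicate 6 at 0.89. Mx2 ranged from -0.027 to 0.12 over the 7 cHF livers and from -0.38 to 0.45 over the 6 cHF+R livers. Oas3 was well above background on just 6 arrays. The median change of the group was -0.038 in cHF+PC, 0.097 in cHF+R and 0.032 in cHF+PC+R against cHF.

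Among the other type I effectors, Ifi35 encodes a leucine zipper protein induced by interferons, and it was the 1 of 9 that passed. It ran from -0.10 through a median of -0.011 to 0.16 in cHF and from -0.32 through -0.15 to -0.034 in cHF+R. In cHF+PC the lowest, median and highest values were -0.23, -0.13 and 0.17, and in cHF+PC+R they were -0.40, -0.26 and -0.15. All cHF+PC+R livers were below all cHF livers. Ifi35 fell by 0.29 ± 0.0647 in cHF+PC+R against cHF (adjusted p = 0.00452), and its averaged rosiglitazone effect was -0.20 ± 0.0468 (adjusted p = 0.0111). Both passed without each liver in turn, with adjusted p up to 0.0141 and 0.027, and within slides Ifi35 was lower on 7 of 7 slides in cHF+PC+R and 5 of 5 in cHF+R than in cHF.

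Isg15, the ubiquitin-like protein that is conjugated to targets in the interferon response, did not pass. Its medians were 0.049 in cHF, -0.053 in cHF+R, -0.16 in cHF+PC and -0.42 in cHF+PC+R, yet each group spread from below -0.2 to above 0.2. Its change in cHF+PC+R against cHF was -0.30 with a 95% interval of -0.65 to 0.042 (adjusted p = 0.27). The second Isg15 probe gave -0.12 in cHF+PC against -0.26 for the first, and neither passed. Usp18, which removes ISG15 and damps the type I receptor, changed by -0.24 with the averaged phospholipid effect (adjusted p = 0.157). Rsad2, or viperin, varied most within diets in this group, with a SD of 0.364, and reached 1.05 in cHF+PC+R replicate 2, where the next liver was at 0.22. Isg20, Ifi44, Xaf1, Bst2 and Parp14 did not pass in any comparison either.

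The interferon-gamma type GTPases attack the vacuoles of intracellular parasites and bacteria, and 0 of 6 passed in any comparison (limma), with 0 under an unadjusted p of 0.05. They were also the role group that varied most from liver to liver. Igtp had the largest SD of all members within diets, 0.459, and ran from -0.39 to 1.21 in cHF, -0.54 to 0.61 in cHF+R, -0.59 to 0.54 in cHF+PC and -0.51 to 0.88 in cHF+PC+R. Its change in cHF+PC against cHF was -0.30, with a 95% interval of -0.75 to 0.16, so changes of that size were not detectable with these livers. Gbp2 and Gbp3, guanylate-binding proteins, spanned -0.46 to 0.78 and -0.22 to 0.82 in cHF+R.

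**Figure D3:**
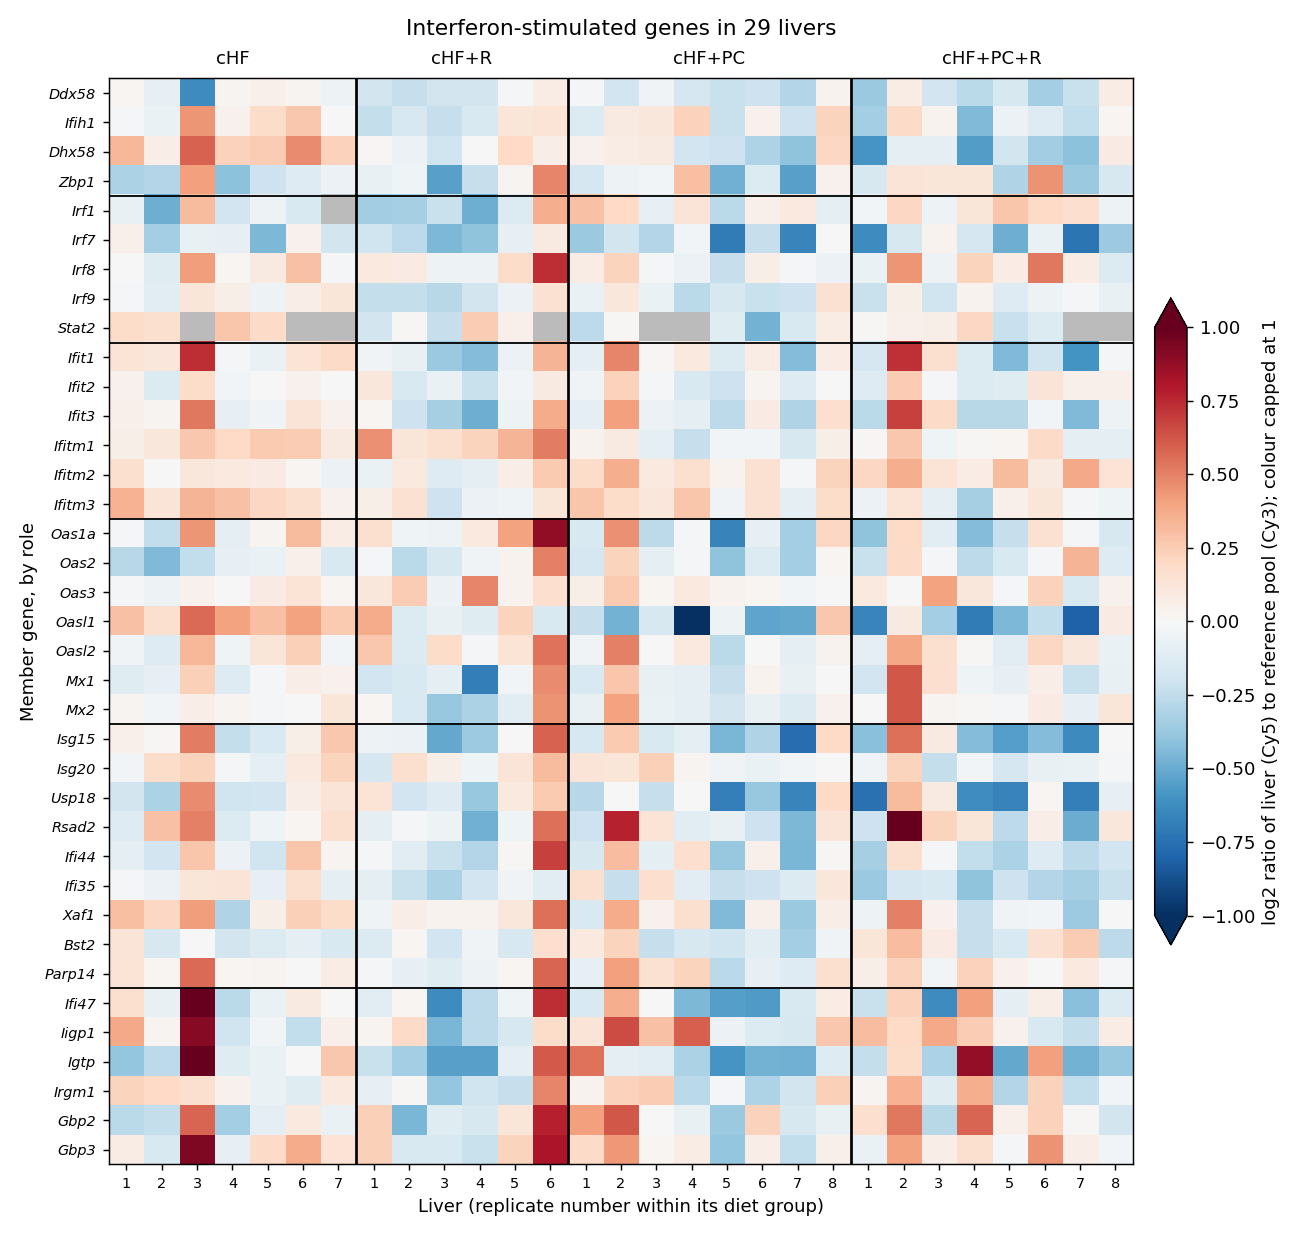
Log2 ratio to the pool (colour, capped at 1 in each direction) of the 37 tested members (rows, by role) in 29 livers (columns, by diet group and replicate number), with grey for no value. Most members were high together in cHF replicate 3, cHF+R replicate 6, cHF+PC replicate 2 and cHF+PC+R replicate 2, and Ddx58 was low in the first of these.

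Single livers stood out across the list. In cHF, replicate 3 held the highest value of 26 of 36 members with a value there, and in cHF+R replicate 6 that of 29 of 36. In cHF+PC, replicate 2 was highest for 22 of 37 members, and in cHF+PC+R replicate 2 for 20 of 37. Over all genes those arrays were highest in their group for 22.5%, 24.5%, 20.6% and 15.6%. The mean over the members was 0.36, 0.39, 0.22 and 0.28 there, while the group medians were 0.031, -0.048, -0.027 and -0.058. These livers were picked for their member values, so their height is a description. They lay on slides 3, 8, 2 and 2.

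The high livers differed in which members led. The GTPases led in cHF replicate 3, with a mean of 0.80, Igtp at 1.21 and Gbp3 at 0.93, beside 0.51 for Isg15. In cHF+PC+R replicate 2 the IFIT and viperin genes led, with Rsad2 at 1.05 and Ifit1 at 0.73, while Igtp was at 0.18. In cHF+PC+R replicate 4 the order was the opposite, with the GTPase mean at 0.44 and Igtp at 0.88 but Isg15 at -0.43. Dhx58 and Oasl1 were high in cHF replicate 3, at 0.59 and 0.57, and not in cHF+R replicate 6, at 0.068 and -0.15.

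After group means were removed, members rose and sank together over the 29 livers. The median correlation over 666 pairs of members was 0.49, against 0.012 over pairs of a subset of 910 genes. It was 0.49 without cHF replicate 4 and 0.26 without the 4 high livers, an alternative chosen after seeing the data. Of the pairs, 46.1% were above 0.5 and 4.2% below 0. All members were read on the same arrays and share their depth and normalization. Members differed in their median correlation with the others, which was 0.68 for Ifi44, 0.66 for Gbp3 and 0.64 for Oas1a. It was 0.13 for Oas3 and Stat2, 0.14 for Ddx58, 0.15 for Oasl1 and 0.24 for Ifi35. Stat2 had no value in cHF replicate 3 and cHF+R replicate 6, which are among the 4 high livers. Oas3 was well above background on just 6 arrays, so these 2 low values may not mean less sharing. Oasl1 and Ifi35, which fell, were thus among the 5 lowest. The other members that passed had 0.39 (Dhx58), 0.41 (Ifitm3), 0.44 (Ifitm2) and 0.49 (Ifitm1).

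For 10 pairs of 5 anchor genes the correlation of residuals was tested by permuting livers within groups, adjusted over the 10. Isg15 and Ifit1 had r = 0.93 and rho = 0.93 (n = 29, permutation p = 1e-05 for both, the smallest the permutations can give, adjusted 1e-04), and r = 0.90 without the 2 livers farthest from the median. Irf7 followed Isg15 with r = 0.66 and rho = 0.65 (permutation p = 0.00042 and 6e-04, adjusted 0.0021 and 0.0015), and r = 0.62 without the 2 farthest. Isg15 and Igtp had r = 0.48 and rho = 0.61 (permutation p = 0.012 and 0.0012, adjusted 0.02 and 0.0025), and r = 0.40 without the 2 farthest livers. Irf7 and Igtp had r = 0.43 and rho = 0.49 (permutation p = 0.025 and 0.011, adjusted 0.036 and 0.016), and r = 0.36 without the 2 farthest.

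Markers of other cell types, immune or not, were also high in some of these livers. The mean of 10 macrophage markers was 0.74 in cHF+R replicate 6, where other cHF+R livers ran from -0.22 to 0.28, and 0.11, 0.12 and 0.17 in the high livers of cHF, cHF+PC and cHF+PC+R. It was higher in replicate 6 of cHF and of cHF+PC+R, at 0.21 and 0.31, than in the high livers of those groups. The mean of the 4 tested of 6 NK cell markers was 0.47 in cHF replicate 3 and 0.64 in cHF+PC replicate 2, the highest of those groups, whose ranges began at -0.21 and -0.18. It was 0.34 in cHF+R replicate 6, as in cHF+R replicate 2, and 0.17 in cHF+PC+R replicate 2, also the highest values of their groups. The NK markers Ncr1 and Klrb1c were well above background on no more than 2 arrays. The mean of 6 T cell markers was highest in cHF replicate 3, cHF+R replicate 6 and cHF+PC replicate 2, at 0.23, 0.37 and 0.29, but in cHF+PC+R replicate 2 it was 0.11, below replicates 4 and 6 at 0.20 and 0.18. Interferon-gamma itself, a product of NK and T cells, was well above background on 6 arrays. High values were not particular to these lists. The hepatocyte mean topped its group in cHF+R replicate 6 (0.30) and cHF+PC+R replicate 2 (0.37), but not in the other high livers. The neutrophil mean was highest in those livers (0.47 and 0.14) and in cHF+PC replicate 2 (0.27). The stellate cell mean was highest in cHF replicate 3 (0.22) and cHF+PC+R replicate 2 (0.18) and lowest in cHF+PC replicate 2 (-0.25). The endothelial mean was highest in cHF replicate 3 (0.13, as in replicate 6), cHF+PC replicate 2 (0.10) and cHF+PC+R replicate 2 (0.14). In cHF+R replicate 6 it was 0.27, below replicate 3 at 0.32. The cholangiocyte mean was highest in cHF+R replicate 6 (0.17), cHF+PC replicate 2 (0.22) and cHF+PC+R replicate 2 (0.12), but not in cHF replicate 3 (0.094). The dendritic cell mean was lowest in cHF replicate 3 (-0.15) and highest in the other high livers. Its 5 tested markers include Bst2, which is also a member, so this mean is not independent of how the livers were picked. Bst2 itself was highest of its group in cHF+R replicate 6 (0.17), cHF+PC replicate 2 (0.22) and cHF+PC+R replicate 2 (0.31). The part of any of these cell types in the member values was not tested.

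**Figure D4:**
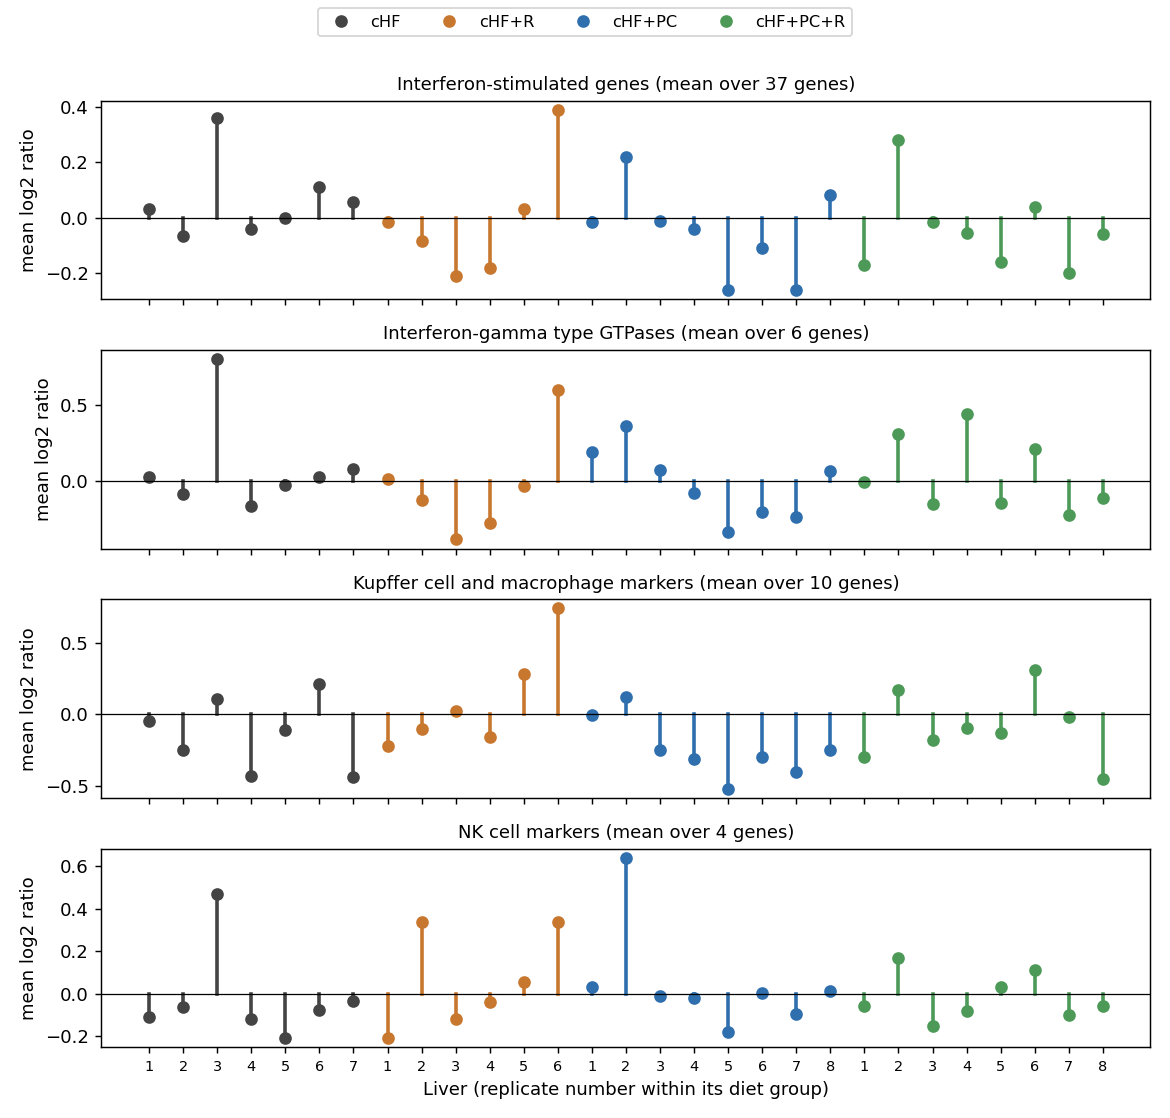
Mean log2 ratio (vertical axes) of the 37 tested members, the 6 GTPases, 10 macrophage markers and 4 NK cell markers in each of 29 livers, coloured by diet group. The members peaked at 0.36 in cHF replicate 3 and 0.39 in cHF+R replicate 6, the macrophage markers at 0.74 in cHF+R replicate 6 and the NK markers at 0.64 in cHF+PC replicate 2.

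Upstream of the list, 19 genes for interferons, receptors and JAK-STAT signalling were tested. They came from 23 listed names, which include Ifnlr1 and Il28ra, synonyms of the same gene. Ifnb1 was well above background on 0 arrays and Ifna4 on 2, while probes for the closely related Ifna1 and Ifna2 were on 29 and 26. In cHF+PC against cHF 0 of 19 passed (limma), and the smallest p were those of Jak1 at 0.29 (unadjusted 0.00214, adjusted 0.0523) and Ifnar2 at 0.20 (unadjusted 0.0024, adjusted 0.0556). In cHF+PC+R against cHF, where 4.74% of all genes rose, 3 of 19 did: Ifnar2, a chain of the type I receptor, by 0.28, Jak1, the kinase on both receptors, by 0.30, and Pias1, an inhibitor of STAT signalling, by 0.16 (adjusted p = 0.00366, 0.0257 and 0.0187). Of the 18 tested genes of upstream induction only Myd88, the adaptor of Toll-like receptors, passed, and it rose by 0.23 in cHF+R and 0.19 in cHF+PC+R against cHF (adjusted p = 0.00294 and 0.00571).

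Of 44 further interferon-induced genes tested, 5 fell in cHF+PC, 5 in cHF+R and 6 in cHF+PC+R, each against the same cHF livers, and 0 rose, beside 2.11%, 1.09% and 4.76% of all genes that fell. Parp9 and Dtx3l, partner proteins encoded head to head, and Oas1c, a close relative of Oas1a, were on all 3 lists. Parp9 ran from 0.08 to 0.33 in cHF, from -0.18 to 0.015 in cHF+R and from -0.30 to -0.064 in cHF+PC+R. The latter 2 did not overlap with cHF, where 2.12% and 2.46% of all genes had no overlap. Its changes against cHF were -0.25 in cHF+PC, -0.27 in cHF+R and -0.36 in cHF+PC+R (adjusted p = 0.0129, 0.0105 and 0.000145). Those of Dtx3l were -0.31, -0.29 and -0.43 (adjusted p = 0.00102, 0.00351 and 6.28e-06, limma). Its cHF livers, between 0.15 and 0.36, lay above all others, and 1.42% of all genes had no overlap between cHF and cHF+PC. Both genes were named because they passed the test.

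Oas1c changed by -0.40, -0.32 and -0.49 in the same order (adjusted p = 0.000652, 0.00903 and 2.28e-05). Each call on these lists was lost under median centring except those of Oas1c in cHF+PC+R against cHF and averaged over rosiglitazone. Its drop in cHF+PC+R passed under all 7 ways of scaling and background correction, and those of Parp9 and Dtx3l under 5 of 7. Ifi27, an interferon-induced mitochondrial protein, fell by 0.43 in cHF+PC against cHF and by 0.42 in cHF+PC+R against cHF+R (adjusted p = 0.0137 and 0.0144), while its change in cHF+R against cHF was -0.013. Averaged over rosiglitazone, 11 of the 44 were lower with phospholipids, where 8.63% of all genes were, and Tor3a had the largest change at -0.66 (adjusted p = 0.00353).

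Averaged over the other factor, 3 of 37 members were lower and 1 higher with phospholipids, where 8.63% of all genes were lower and 7.61% higher, so that these counts were not above the background. With rosiglitazone 3 members were lower, where 1.55% of all genes were. The list medians were -0.06 against -0.0017 over all genes for phospholipids and -0.022 against 0.012 for rosiglitazone. Within slides the median of the members in cHF+PC against cHF was below 0 on 5 of 7 slides and ran from -0.37 to 0.33.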

How the data were processed

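The arrays were Agilent 2-colour 4x44K slides with mouse liver RNA in Cy5 and a common pool in Cy3, per the labels, and no dyes were swapped. The deposited scanner files hold each spot's linear intensity and local background, extracted with Agilent Feature Extraction 10.5.1.1 per the submitters' processing notes. The labels also record that the authors left out 1 cHF and 1 R array before normalization. The authors also deposited a log2 value table of 25806 rows, which followed the Cy5 channel of its own array in 29 of 29 columns. The sources used here do not give its normalization.

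Intensities were corrected with normexp (offset 50) and normalized by loess within each array in limma 3.58.1 (R 4.3.3). Control and outlier spots were left out. A probe was kept if its Cy5 signal cleared the background on 6 arrays or more and it had a value on 20 or more, and the brightest probe stood for a gene. A model of 4 group means over 29 arrays gave 8 comparisons, two-sided, adjusted by Benjamini-Hochberg over 19475 genes, with 0.05 as the threshold. Only genes past it are said to rise or fall, and ± gives the standard error. The test was checked on simulated data.

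The members and lists were chosen with earlier results of these data known. Named genes were members past the threshold, the 3 with the smallest p per comparison, the most variable per role, and 5 anchors (Irf7, Isg15, Ifit1, Igtp and 1 gene not reported here), and for other lists those past the threshold or else the 2 with the smallest p. Other genes were named after their values were seen. Arrays lay on 8 slides, run as a block and within slides. Promoters are RefSeq windows of GRCm38.p6, and probe positions are mm9. Alternatives were other background corrections and scalings, the deposited table, no or a stricter filter on dim probes, the mean of probes, an intensity trend, array weights, slide and replicate blocks, only the compared groups, and each array left out in turn.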

Additional observations from a re-analysis of the deposited data

Results flagged for a closer look

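In 19 of 148 sets of livers (a member within a diet group), the highest or lowest liver lay far from all others of its group, by Dixon's criterion at 95%. Chance alone flags about 1 in 20 independent sets. The members were read on the same arrays and moved together, so the count cannot be set against that share. In cHF the flagged liver was replicate 3 each time. It was the lowest for Ddx58 at -0.63, with the next at -0.08. It was the highest for Zbp1 at 0.41, Ifit1 at 0.74, Ifit3 at 0.53, Parp14 at 0.57, Ifi47 at 1.03 and Igtp at 1.21. In cHF+R replicate 6 stood highest for Irf8 at 0.74, Ifi44 at 0.68, Xaf1 at 0.55 and Parp14 at 0.58, where the nearest other livers were at 0.18, 0.013, 0.11 and 0.016. In cHF+PC replicate 2 stood highest for Oas3 at 0.26 and Mx2 at 0.40, and replicate 1 for Igtp at 0.54. In cHF+PC+R replicate 2 stood highest for Mx1 at 0.62, Mx2 at 0.62, Isg20 at 0.22, Rsad2 at 1.05 and Xaf1 at 0.50.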

How the results depend on the processing

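Counts of called members depended most on scaling. Median centring and loess followed by scaling between arrays gave 0 calls in cHF+PC and cHF+PC+R against cHF, in cHF+PC+R against cHF+R and in both averaged effects. Under median centring 10, 82, 53, 163 and 129 genes passed overall in those comparisons, the averaged rosiglitazone change of Ifitm3 turned to 0.011, and the median of all genes moved to 0.15 in cHF+R against cHF, where the list's was 0.095. For cHF+PC+R against cHF+R the count was 2 with no background subtraction (Ifitm1 and Ifitm2) and 2 with the replicate block (Ifitm1 and Oasl1), 3 with array weights (Irf1, Ifitm1 and Ifitm2), and 0 with quantile-normalized Cy5 alone and with only the compared groups. For cHF+R against cHF it was 1 (Ifi35) with no background subtraction and with the deposited table, and array weights gave 1 (Ifi35) in cHF+PC+R against cHF+PC. The cause was not tested.

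Leaving out 1 liver gave counts from 1 (without cHF replicate 3) to 4 (without cHF+PC replicate 8) in cHF+PC against cHF, 4 to 5 in cHF+PC+R against cHF, and 1 to 4 (without cHF+R replicate 6) in cHF+PC+R against cHF+R. They ran from 3 to 5 for the averaged phospholipid effect and from 1 (without cHF+R replicate 3) to 3 for rosiglitazone. The medians moved by less than the spread between livers (SD of the livers' member medians) under these settings. This bound is loose, since changes of sign stayed within it. Under median centring the list median was 0.095 in cHF+R against cHF, beside -0.086 in the main fit. It was -0.0064 in cHF+PC+R against cHF, beside -0.10, and 0.13 for averaged rosiglitazone, beside -0.022. The median of all genes moved too, to 0.15, 0.072 and 0.12. Replicate numbers did not pair the livers: 14 of 40 same-numbered pairs correlated above 0.1 (median 0.022). With the replicate block the list medians were -0.09 in cHF+PC, -0.11 in cHF+R and -0.12 in cHF+PC+R against cHF, and it lost none of the calls on the list and added Stat2 in cHF+PC against cHF (4 calls) and Ifih1 in cHF+PC+R against cHF (5 calls).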

Other observations

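A second probe for Xaf1, a pro-apoptotic interferon-induced gene, gave values unlike any other on the list. It lies at chr11:72127175-72127234 on the plus strand of mm9 and did not pass the filter. It read 2.64 in cHF replicate 3, 2.23 in cHF+R replicate 1, 2.17 in cHF replicate 4 and 1.56 in cHF+PC replicate 1. In 5 livers it lay between -0.47 and -0.15, and in 20 between -1.76 and -1.18, with no liver between these bands. It was well above background in Cy5 in all 4 of the highest livers, in 0 of the middle 5 and in 1 of the 20 lowest. The main Xaf1 probe read 0.42, -0.046, -0.30 and -0.15 in the 4 highest livers. The bands were noticed in the data, cross the diet groups and were not tested.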
